A study of Arabidopsis thaliana with 20 samples.

Results

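The regions described here are 9233 stretches of 100 bp in the pericentromeres of Arabidopsis thaliana that the authors listed as differentially methylated regions (DMRs) of drm2 plants in the CG context, and in neither of the other cytosine contexts. They were taken from the 15257 CG DMRs of drm2 by position alone. A DMR was kept if it shared no base with a CHG or CHH DMR of drm2 and if its start lay inside the pericentromeric bounds (chromosome 1, 11.5 to 17.7 Mb; chromosome 2, 1.1 to 7.2 Mb; chromosome 3, 10.3 to 17.3 Mb; chromosome 4, 1.5 to 6.3 Mb; chromosome 5, 9 to 16 Mb; build TAIR10). They make up 60.5% of the CG DMRs of drm2, and the study's sets hold 81944 listed DMRs in all. The list does not say whether a DMR lost or gained methylation in drm2.

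The study measured nucleosome occupancy in DNA methyltransferase mutants by MNase-H3-ChIP-seq, in which micrococcal nuclease digests the DNA between nucleosomes after which DNA that comes down with an antibody against histone H3 is sequenced. The groups used here are drm2 leaves and wild-type Col-0 leaves, both of the Columbia background and 3.5 weeks old, with 2 replicates each. H3 profiles of met1-3 and cmt3 leaves and bisulfite data of nrpe1, swi3b and Col-0 leaves, of the same background and age and also with 2 replicates per genotype, are set beside them where they cover the same bases. The labels name the mutants by gene and give no allele for drm2. The deposited tables hold 1 profile per genotype that combines its replicates, so no test between genotypes was possible, and every difference below is a description of these profiles without a replicate error.

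DRM2 is the methyltransferase of RNA-directed DNA methylation. It sets methylation in every cytosine context and is best known for maintaining CHH methylation at transposons, chiefly short elements and the edges of long ones. CG methylation is copied after replication by MET1, and CHG methylation is kept mainly by CMT3. Pericentromeres are the heterochromatin around the centromeres, dense in transposons and in nucleosomes and heavily methylated in CG.

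The 9233 DMRs lay on a 50 bp grid, so neighbours often share bases and are not independent. Joined where they touched the same bases, they formed 5362 loci over 729750 distinct bases. Of these loci 2797 held a single DMR, and the longest held 13. Chromosome 3 had the most DMRs (2237) and chromosome 1 the fewest (1368). By the RefSeq gene table of assembly TAIR10.1, 48.0% of the DMRs overlapped a pseudogene and no protein-coding gene, a class that in this table includes many transposon-derived genes. A further 9.28% overlapped a protein-coding gene, 1.33% another RNA gene, and 41.4% no listed gene. Of the single bases inside the bounds, 27.4% lay in pseudogenes, 21.8% in protein-coding genes and 49.6% outside listed genes. The measures are unlike, since a DMR counts in a class by touching it with any base and neighbouring DMRs share bases. The 3485 CG-only DMRs of drm2 on the chromosome arms, chosen by the same rule outside the bounds, lay mostly in protein-coding genes (63.6%).

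Most of the pericentromeric CG-only DMRs are also CG DMRs of met1. A base was shared with a met1 CG DMR by 7048 of them (76.3%), against 32.5% of the CG-only DMRs of the arms. A cmt3 CHG DMR was shared by 223 (2.42%), against 0.861% of the CG-only DMRs of the arms. The share of all pericentromeric bases that lie in a met1 or cmt3 DMR was not computed. Whether these overlaps exceed it was therefore not tested.

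Across these DMRs, H3 coverage was spread less widely in drm2 than in Col-0. Coverage is the number of sequenced fragments over a base, and drm2 was divided by 1.17 to match Col-0 in the outer parts of the windows, as a correction for depth. The median DMR had a coverage of 25.2 in drm2 and 18.95 in Col-0. The middle 50% of DMRs ran between 7.66 and 36.9 in drm2, and between 2.62 and 43.65 in Col-0. Both ends of the distribution were thus closer together in drm2. A coverage between 20 and 50 was found for 52.8% of the DMRs in drm2 and for 31.2% in Col-0. At 50 or more stood 588 DMRs in drm2 and 1646 in Col-0, and below 5 stood 2035 in drm2 and 2914 in Col-0. For all 15257 CG DMRs of drm2, most of them these 9233, the middle 50% ran between 5.74 and 35.8 in drm2. In Col-0 it ran between 2.33 and 42.98. On the arms the CG-only DMRs had a lower median coverage in both genotypes, 14.8 in drm2 and 5.39 in Col-0. Their middle 50% was slightly wider in drm2 (1.69 to 26.3) than in Col-0 (0.97 to 24.13). Their 90th percentile was still lower in drm2, at 34.9 against 44.3 in Col-0.

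**Figure D1:**
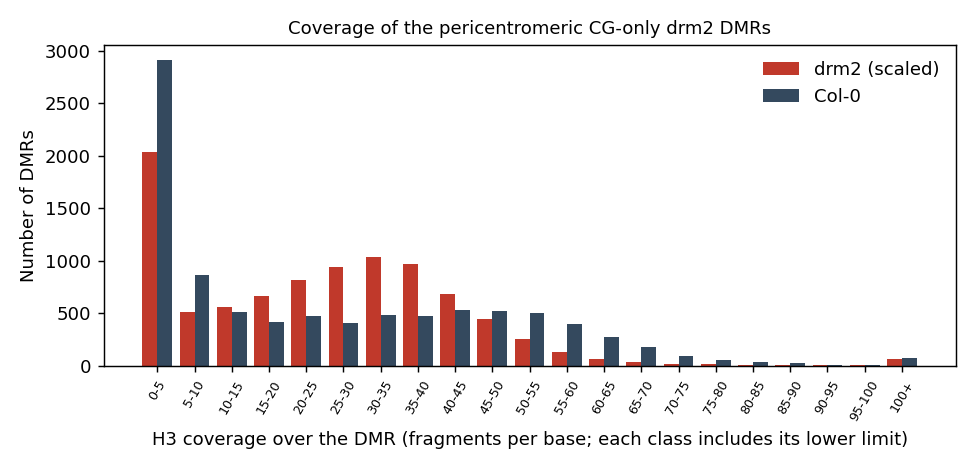
Number of pericentromeric CG-only drm2 DMRs (vertical axis) in classes of H3 coverage in fragments per base (horizontal axis), for drm2 scaled to Col-0 (red) and Col-0 (dark blue). The drm2 bars are taller between 10 and 45, and the Col-0 bars are taller below 10 and from 45 upwards.

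Higher and lower DMRs were about equal in number. On the scale log2((drm2 + 1)/(Col-0 + 1)), the median over the 9233 DMRs was 0 in total and on each of the 5 chromosomes. Coverage was lower in drm2 at 44.8% of them (46.4% of all CG DMRs of drm2), higher at 46.5% (44.5% of all CG DMRs of drm2), and equal at 8.68%. On the arms 33% of the CG-only DMRs were lower and 54.8% higher in drm2. Of the 1746 pericentromeric CG DMRs that share a base with a CHG or CHH DMR of drm2, 71.4% were lower and 25.4% higher. The equal ones among the 9233 were the 801 DMRs without a fragment in either genotype. Neither the lower nor the higher DMRs were a majority, so these ties hold the median at 0, also on each chromosome. Among the 6992 DMRs whose coverage in both genotypes added up to 10 or more, the median was -0.021. By chromosome it ran from -0.056 (chromosome 2) to 0.018 (chromosome 4). Summed over all 9233 DMRs, drm2 coverage stood at a log2 ratio of -0.14 to Col-0, with chromosomes between -0.27 (chromosome 3) and -0.01. This sum depended on a few regions of very high coverage, described further on, and its sign on the scaling: without scaling of drm2 it was 0.09.

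At a coverage minimum of 10, differences of at least 2-fold were mostly increases. Of the 6992 DMRs whose coverage in drm2 and Col-0 added up to 10 or more, 1377 were at least 2-fold higher in drm2 (19.7%), in 979 loci. Of all 11293 CG DMRs of drm2 that reached the minimum, 19.8% passed the same rule, but the 6992 are most of them. The other parts differed from this share and from each other. On the arms 33% of the CG-only DMRs passed. Among 1556 pericentromeric CG DMRs that share a base with a CHG or CHH DMR of drm2, 5.78% passed. The 58 DMRs at least 2-fold lower (0.83%, in 47 loci) made up no larger share than the 1.5% of all CG DMRs of drm2. The share was 1.11% on the arms and 1.80% in those shared pericentromeric DMRs. No locus held calls in both directions. The count of lower DMRs depended on the settings, from 22 with a pseudocount of 5 to 217 without a minimum, and at a minimum of 50 there were 48 higher and 40 lower DMRs, so that the excess of increases was nearly absent there. All shares of 2-fold higher or lower DMRs given here are shares of the DMRs that reached the minimum of 10. By chromosome, 17.3% to 21.8% were 2-fold higher and 0.567% to 1.44% 2-fold lower.

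The direction of these calls went with the level of Col-0 coverage, which is also part of the ratio that made them. Such a split by itself favours higher calls at low Col-0 coverage and lower calls at high Col-0 coverage. Of all 9233 DMRs, 31.2% had a Col-0 coverage of 20 to 50 and 17.8% one of 50 or more. Of the 1377 higher DMRs, 1370 had a Col-0 coverage below 20, with medians of 19.6 in drm2 and 5.34 in Col-0. Of the 58 lower DMRs, 50 had a Col-0 coverage of 20 or more, with medians over the 58 of 18.3 in drm2 and 42.6 in Col-0. Where Col-0 had no fragment at all, 44 DMRs had a drm2 coverage of at least 10, reaching 31.2. The converse was not seen: the highest Col-0 coverage at a DMR empty in drm2 was 8.16.

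Grouped by Col-0 coverage, the DMRs moved in a graded way. At a Col-0 coverage of 2 to 5 the median was 9.92 in drm2 and 3.34 in Col-0, with a median log2 ratio of 1.30 over 805 DMRs. At 5 to 10 the medians were 17.8 in drm2 and 7.23 in Col-0, with a median log2 ratio of 1.16 and 787 of 863 DMRs higher in drm2. At 10 to 20 they were 24.3 in drm2 and 14.5 in Col-0, with a median log2 ratio of 0.67 over 929 DMRs. The sparsely covered DMRs thus stood higher in drm2, and the ratio shrank as Col-0 coverage grew.

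At a Col-0 coverage of 20 to 50, where 2881 of the DMRs lay, the medians came close, at 32.8 in drm2 and 35.9 in Col-0, with a median log2 ratio of -0.13. At 50 to 100 the order was turned, with 44.9 in drm2 and 58.6 in Col-0, a median log2 ratio of -0.40, and 1518 of 1571 DMRs lower in drm2. Each chromosome showed the same pattern: its median log2 ratio lay between 1.08 and 1.22 at a Col-0 coverage of 5 to 10, and between -0.43 and -0.39 at 50 to 100.

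Sorting by Col-0 coverage by itself pulls the ratio up at the low end and down at the high end, because counting error in Col-0 enters both the sorting and the ratio. Sorted by drm2 coverage instead, which pulls the other way, the median log2 ratio was 1.17 at 5 to 10, 0.997 at 10 to 20, -0.11 at 20 to 50 and -0.21 at 50 to 100. Sorted by the mean of both genotypes, it was 1.35 at 5 to 10, 1.08 at 10 to 20, -0.14 at 20 to 50 and -0.34 at 50 to 100. The sign in each of these classes was the same under all 3 sortings, at the factor of 1.17. Without scaling, the median sorted by Col-0 coverage was -0.18 in place of -0.40 at 50 to 100. The class of 20 to 50 and the other sortings were not recomputed at other scalings. Their negative signs, and the coverage at which the sign turns, therefore hold for this factor only.

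The pattern was not confined to the DMRs. Bins of 100 bp were taken from the outer parts of the windows of all CG DMRs of drm2. Those that started inside the bounds and touched no drm2 DMR were set beside the DMRs. By Col-0 coverage, their median log2 ratio was 0.25 at 2 to 5, 0.69 at 5 to 10, 0.60 at 10 to 20, -0.01 at 20 to 50 and -0.38 at 50 to 100. Of these 5 classes, DMRs and bins lay farthest apart at 2 to 5, where the median of the DMRs was 1.30, and they lay closer together from 10 upwards. That depended on the sorting: at 20 to 50 the bins had a median of 0.24 sorted by drm2 coverage and 0.09 sorted by the mean of both genotypes, where the DMRs had -0.11 and -0.14. The CG-only DMRs of the arms had medians of 1.19, 1.08, 0.58, -0.22 and -0.47 in the same 5 classes, close to the pericentromeric ones. The larger share of 2-fold higher DMRs on the arms goes with their lower coverage, since 48.7% of them had a Col-0 coverage below 5, against 31.6% in the pericentromeres; the part of this in that share was not tested.

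**Figure D2:**
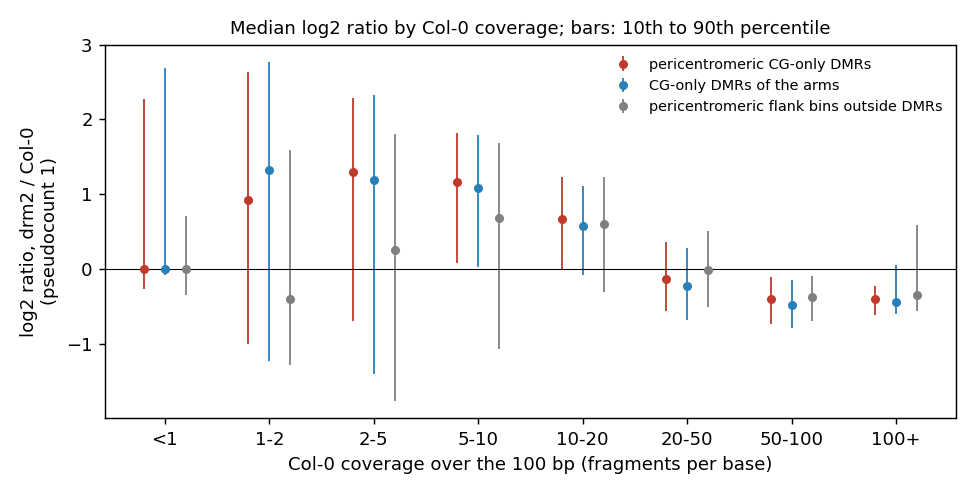
Median log2 ratio of drm2 to Col-0 coverage (vertical axis) in classes of Col-0 coverage in fragments per base (horizontal axis), with bars from the 10th to the 90th percentile, for pericentromeric CG-only DMRs (red), CG-only DMRs of the arms (blue) and pericentromeric flank bins outside DMRs (grey). In all 3 sets the median is above 0 between 5 and 20 and below 0 from 50 upwards; in the pericentromeric DMRs it passes from 1.16 at 5 to 10 to -0.40 at 50 to 100.

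The DMRs sat on a peak of H3 coverage in both genotypes, whose dependence on where reads can be placed was not tested. Averaged over 9217 windows (16 windows with a mean Col-0 coverage above 200 left out), coverage over the DMR was 24.4 in drm2 and 25.04 in Col-0, against 13.6 in drm2 and 12.7 in Col-0 over the outer flanks. The DMR thus exceeded its flanks 1.80-fold in drm2 and 1.96-fold in Col-0. Midway between flank and summit the peak was 189 bp wide in drm2 and 191 bp in Col-0. On the arms the peak stood higher above its flanks, 2.64-fold in drm2 and 2.57-fold in Col-0.

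**Figure D3:**
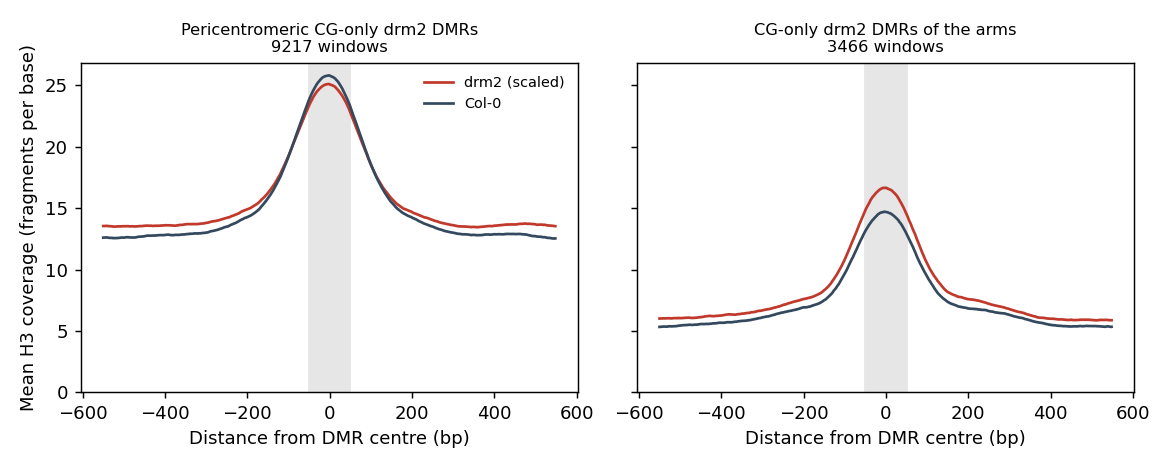
Mean H3 coverage in fragments per base (vertical axis) by distance from the DMR centre in bp (horizontal axis), in drm2 scaled to Col-0 (red) and in Col-0 (dark blue), for pericentromeric CG-only DMRs (left panel) and CG-only DMRs of the arms (right panel); the grey band is the DMR. Both genotypes peak on the DMR, and in the pericentromeres the drm2 curve is below Col-0 at the peak (25.1 against 25.8) and above it in the flanks.

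The windows of the 1377 DMRs called higher and of the 58 called lower, a minority of the DMRs, were also averaged apart. At the DMRs that were at least 2-fold higher in drm2, the DMR stood above its flanks in drm2 (20.8 against 10.7, 1.94-fold) but below them in Col-0 (6.13 against 9.16, 0.669-fold). These DMRs were therefore coverage troughs in Col-0 and peaks in drm2, in terms of the averages. At the 2-fold lower DMRs the peak was present in both, 1.76-fold over flanks in drm2 and 4.28-fold in Col-0. These profiles restate values that chose the DMRs, and are given to show their shape.

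Within single windows, coverage was more even in drm2. The coefficient of variation of coverage along a window was 0.75 in drm2 and 0.92 in Col-0 at the median of the 6069 windows with a mean of at least 5 in both genotypes. It was lower in drm2 in 5345 of them (88.1%). On each chromosome the median was lower in drm2, between 0.70 and 0.80 in drm2 and between 0.88 and 0.99 in Col-0. In the 2790 windows with a mean of at least 20, the medians were 0.44 in drm2 and 0.63 in Col-0, and drm2 was lower in 93.7%. In the arms drm2 was lower in 81.0% of 1371 windows, and over all CG DMRs of drm2 in 86.7%, so the difference was not particular to the pericentromeres. The unscaled drm2 profile was deeper (mean coverage of 17.9 in drm2 and 15.1 in Col-0 over the 4.76 Mb of distinct bases of these windows), which by itself lowers counting noise; its part in the difference was not tested.

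The peaks nonetheless lay at much the same places. Along a window, the coverage of drm2 and of Col-0 had a median Pearson r of 0.88 over the 6069 windows, with the 10th percentile at 0.66 and the 90th at 0.97, and r was 0.8 or more in 73.7% of them. Positions along a window share fragments and the mappability of the sequence, so r is a description of likeness without a test.

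DMRs outside listed genes differed in level from those in pseudogenes. The 3823 DMRs in no listed gene had a median coverage of 13.5 in drm2 and 5.22 in Col-0, and 16.5% of them held no fragment in either genotype. The 4430 DMRs in pseudogenes had medians of 31.4 in drm2 and 30.6 in Col-0, with 2.12% empty in both. The 857 DMRs in protein-coding genes had medians of 23.9 in drm2 and 14.6 in Col-0. The share of DMRs at least 2-fold higher in drm2 was 23.3% outside listed genes, 17.1% in pseudogenes and 22.8% in protein-coding genes, and the share 2-fold lower was 1.15%, 0.577% and 1.24% in the same order. On the arms, protein-coding genes had the highest of these shares, with 41.2% at least 2-fold higher. Coverage could be 0 because a site holds few nucleosomes or because reads cannot be placed there, which cannot be told apart from these tables. Of the 801 DMRs empty in both genotypes, 105 had no fragment in their whole 1100 bp window.

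Along the pericentromere, coverage was higher towards the middle of the bounds. Within the innermost 25% of the distance to the bounds the median DMR had 28.98 in drm2 and 25.01 in Col-0, and between 50% and 75% of the way out it had 20.7 in drm2 and 10.95 in Col-0. In the outermost stretch it had 22.6 in drm2 and 13.9 in Col-0. The share of 2-fold higher DMRs varied little, from 17.8% innermost to 22.9% between 50% and 75% of the way out. At the bounds themselves, the 740 DMRs within 0.5 Mb inside had medians of 23.1 in drm2 and 13.9 in Col-0, and the 307 CG-only DMRs within 0.5 Mb outside had 10.004 in drm2 and 3.84 in Col-0. Of the DMRs in these strips that reached the minimum of 10, 113 of 540 inside (20.9%) and 62 of 170 outside (36.5%) were at least 2-fold higher.

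The met1-3 and cmt3 profiles cover part of the same bases and allow the genotypes to be set side by side. All are set against the same Col-0 profile, so no overlap or correlation between mutants was computed, and each was scaled by the flanks of its own table, drm2 by 1.17, met1-3 by 0.372 and cmt3 by 0.586. Over the 7603 DMRs whose bases met1-3 covers, those with a Col-0 coverage of 2 to 10 had medians of 14.3 in drm2, 3.07 in met1-3 and 5.07 in Col-0. At 10 to 20 the medians were 24.1 in drm2, 13.6 in met1-3 and 14.5 in Col-0. At 50 to 100 they were 45.3 in drm2, 52.1 in met1-3 and 59.1 in Col-0. The 70 DMRs at 100 or more had 122 in drm2, 183.8 in met1-3 and 154.7 in Col-0. At these factors, the higher coverage of sparse DMRs in drm2 was not seen in met1-3. It stood below Col-0 in the classes up to 100 given here and above Col-0 from 100 upwards. From 50 upwards drm2 was the lowest of the 3 genotypes. Factors below 1 mean that the met1-3 and cmt3 profiles were shallower than Col-0. At a Col-0 coverage of 2 to 10, 24.8% of the DMRs had no fragment in met1-3, against 1.94% in drm2. Other scalings of met1-3 and cmt3 were not computed, so their order against Col-0, here and below, holds for these factors only.

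**Figure D4:**
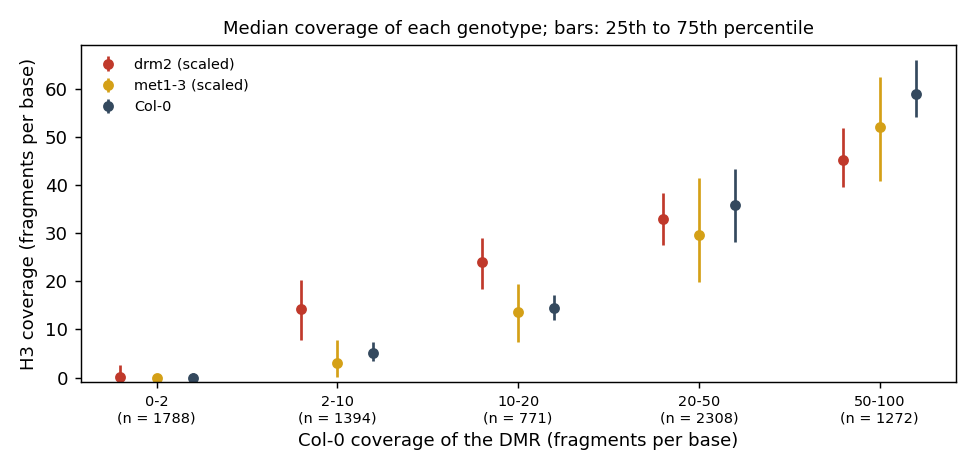
Median H3 coverage in fragments per base (vertical axis) of drm2 (red), met1-3 (yellow) and Col-0 (dark blue) at the pericentromeric CG-only drm2 DMRs that met1-3 covers, in classes up to 100 of Col-0 coverage (horizontal axis), with bars from the 25th to the 75th percentile. At a Col-0 coverage of 2 to 10 drm2 is the highest (14.3, against 3.07 in met1-3 and 5.07 in Col-0), and at 50 to 100 it is the lowest.

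Over the 1013 DMRs that cmt3 covers, those at a Col-0 coverage of 2 to 10 had medians of 14.4 in drm2, 5.34 in cmt3 and 5.47 in Col-0. At 20 to 50 they were 32.6 in drm2, 42.6 in cmt3 and 34.7 in Col-0, and at 50 to 100 they were 45.2 in drm2, 64.4 in cmt3 and 57.7 in Col-0. All 3 mutants were sorted by the same Col-0 coverage, and drm2 is the one whose medians at low and high coverage came closest together. DMRs shared with met1 and those not shared were alike in level: 25.2 in drm2 and 18.6 in Col-0 for the 7048 shared, 25.5 in drm2 and 20.25 in Col-0 for the 2185 others. Among those that reached the minimum of 10, at least 2-fold higher in drm2 were 1089 of 5357 shared DMRs (20.3%) and 288 of 1635 others (17.6%).

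The single DMRs with the largest differences were taken, 1 per locus, from the 4280 DMRs in 2498 loci whose coverage in drm2 and Col-0 added up to 50 or more. They were chosen for these values, which are therefore given without a test. The largest decrease lay on chromosome 2 at 6316301 to 6316400, in no listed gene, between APK and AT2G14755. Coverage there was 14.8 in drm2 and 42.7 in Col-0 (log2 ratio -1.47). Of the fragments over its central base 29.9% came from drm2 (exact Clopper-Pearson 95% interval 19.3% to 42.3%, counting error only), where equal scaled coverage would give 53.9%. The peak stood at the same place in both genotypes, while mean coverage in the outer flanks of its window was 3.29 in drm2 and 0.598 in Col-0.

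The next largest decrease was on chromosome 3 at 16731901 to 16732000, between AT3G45580 and SEN1 and in no listed gene, with 13.0 in drm2 and 37.4 in Col-0 (log2 ratio -1.46). On chromosome 1 at 15772601 to 15772700, between pseudogenes AT1G42230 and AT1G42240, the values were 14.1 in drm2 and 37.4 in Col-0 (log2 ratio -1.35). On chromosome 5 at 10222301 to 10222400, in pseudogene AT5G28250, they were 14.8 in drm2 and 38.7 in Col-0 (log2 ratio -1.33). All 4 decreases were peaks that stood at the same place in both genotypes and were lower in drm2. In met1-3 the same 4 DMRs had 26.7, 23.6, 12.8 and 37.6, each below Col-0, the last by little. The choice of these DMRs favours high values of that same Col-0 profile, so this is no separate support from a second mutant.

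The largest increase was on chromosome 2 at 3267901 to 3268000, in no listed gene, with 55.1 in drm2 and 8.26 in Col-0 (log2 ratio 2.60). The drm2 share of fragments at its centre was 85.4% (interval 75.8% to 92.2%). On chromosome 2 at 3354601 to 3354700, in pseudogene AT2G07697, coverage was 66.6 in drm2 and 11.8 in Col-0 (log2 ratio 2.40). On chromosome 2 at 5459951 to 5460050, between pseudogenes AT2G13175 and AT2G13180, it was 45.2 in drm2 and 9.16 in Col-0 (log2 ratio 2.19). These 3 were narrow islands with no coverage in the outer flanks of either genotype.

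The increase that lay in a gene was on chromosome 1 at 13330951 to 13331050, in PUM17 (AT1G35850), a protein-coding gene named for the Pumilio family of RNA-binding proteins. Coverage was 43.2 in drm2 and 7.86 in Col-0 (log2 ratio 2.32), and here the gain extended over most of the window, whose mean was 18.6 in drm2 and 4.62 in Col-0. In met1-3 the 4 increased DMRs had 11.4, 28.7, 7.21 and 25.02, in the order of their log2 ratios. That was between Col-0 and drm2 at the 3 on chromosome 2 and below both in PUM17. The choice of increases favours low values of the same Col-0 profile, so met1-3 values above it are no separate support either. The first 2 lie in the stretch of chromosome 2 described next.

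**Figure D5:**
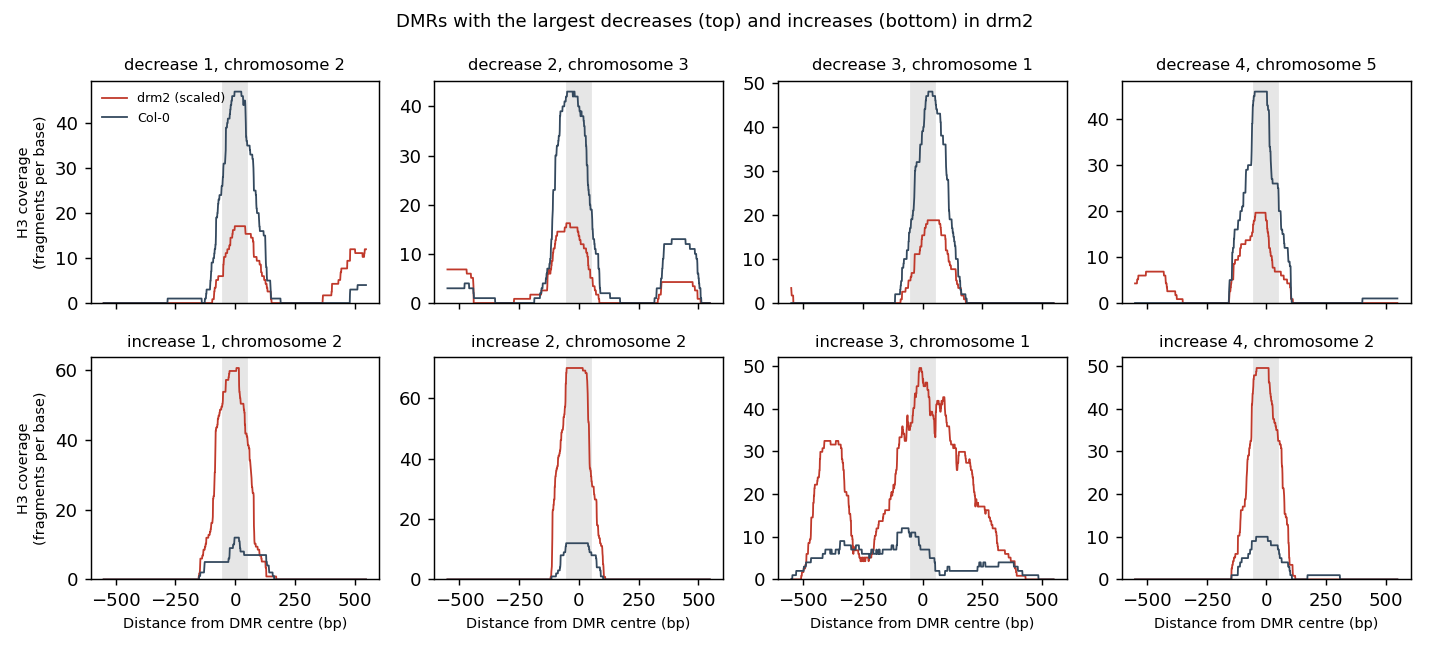
H3 coverage in fragments per base (vertical axes) by distance from the DMR centre in bp (horizontal axes) in drm2 scaled to Col-0 (red) and Col-0 (dark blue), at the DMRs with the 4 largest decreases (top row) and the 4 largest increases (bottom row); the grey band is the DMR. The peak over the DMR sits at the same place in both genotypes in the top row and at increases 1, 2 and 4; at increase 3, in PUM17, drm2 coverage is raised over most of the window.

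A few DMRs of very high coverage carried much of the summed signal. On chromosome 3 between 14195851 and 14201750, 16 DMRs had a Col-0 coverage above 1000, and together held 22.4% of the summed drm2 coverage and 27.8% of the summed Col-0 coverage of all 9233. Some of them overlap an annotated ribosomal RNA gene (AT3G41979) or noncoding RNA loci such as AT3G06355 and AT3G06365, others the protein-coding gene AT3G41762, and others no listed gene. All 16 were lower in drm2, with log2 ratios between -0.63 and -0.30, but they form only 5 loci close together and are not independent. The highest, at 14201451 to 14201550 in AT3G06365, had 6780 in drm2 and 8321 in Col-0. Ribosomal DNA exists in many copies, so coverage over it cannot be assigned to 1 site. Without the 16 windows of highest coverage the log2 ratio of the sums over all DMRs was -0.04 in place of -0.14, at unchanged scaling of drm2. The scaling itself includes windows of very high coverage. With windows of a mean Col-0 coverage above 200 left out of the scaling only, the factor rose to 1.22. The sum over all 9233 DMRs then stood at -0.20. Both changes together were not computed, so how far the sum shrinks without these windows depends on the scaling.

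Another dense stretch lay on chromosome 2 between 3.2 and 3.4 Mb, within the known insertion of mitochondrial DNA near that centromere. Its 33 DMRs with a Col-0 coverage above 100, in 15 loci, were all lower in drm2, with medians of 118 in drm2 and 145.6 in Col-0. Of all 81 DMRs of the stretch, 52 were lower and 20 higher. Reads of mitochondrial origin cannot be told apart from reads of the insertion in these tables, and this also holds for the first 2 increases above.

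The locus with the most DMRs lay on chromosome 5 at 15923701 to 15924400, overlapping the protein-coding genes AT5G39770 and AT5G39775. Its 13 DMRs ran from a log2 ratio of -0.575 to 1.001, with 4 lower and 9 higher in drm2. Where Col-0 had its densest DMR, coverage was 35.1 in drm2 and 47.5 in Col-0. Where Col-0 was sparsest, it was 16.2 in drm2 and 8.45 in Col-0. Over these 700 bp, the 13 overlapping DMRs thus ranged from 16.2 to 40.3 in drm2 and from 8.45 to 47.5 in Col-0, a narrower range in drm2.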

How the data were processed

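Per the labels, leaf chromatin was digested with micrococcal nuclease, precipitated with an anti-H3 antibody and sequenced in 50 bp paired-end reads. The submitters' processing notes name TAIR10, Bowtie2, Picard, Bismark and methylKit (a tool for differential methylation), without versions or roles. How the DMRs were called, with which thresholds, is not given in the sources used here. The authors deposited the H3 signal as whole-number coverage per base, 1 combined profile per genotype, over windows of 1100 bp (1099 values; a shift of 1 bp cannot be settled). The design allowed for a count test where replicate columns existed. No column held a single replicate, so no test was run. Bisulfite methylation was deposited as a fraction per position, for other genotypes, and reached few of these DMRs.

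A DMR's value is its mean coverage over values 501 to 600. drm2 values were divided by 1.17. This is drm2 coverage over Col-0 coverage, each summed over the outer 200 positions on either side of all drm2 CG windows. Ratios are log2 with a pseudocount of 1, which understates changes at low coverage. Calls of 2-fold need a coverage of 10 in both genotypes together. Named DMRs need 50, and are the 4 largest decreases and 4 largest increases, 1 per locus, the largest locus and the highest Col-0 coverage. Mean coverage over distinct bases was 17.9 in drm2 (unscaled) and 15.1 in Col-0; intervals cover counting error only. Genes came from the RefSeq table of TAIR10.1, for names and overlap. Alternatives were other scalings, pseudocounts, minimums, widths and sets. The calculations were tested on simulated data. Calculations ran in Python 3.11.15 (pandas 2.3.3, numpy 2.4.6), with scipy 1.17.1 for intervals and matplotlib 3.10.9 for plots. The DMRs, rules and comparisons were chosen with earlier results of these data known.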

Additional observations from a re-analysis of the deposited data

How the results depend on the processing

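No paired analysis was possible because each table combines both replicates of a genotype, and for the same reason no replicate could be left out. Of 86 alternative values of the 4 summary results, 70 stayed close to the reported value, which for the median and the sum means within the SD over the 5 chromosomes and for counts within 1.5 times. The log2 ratio of the sums turned to 0.088 without scaling. It was -0.26 when scaled by distinct bases outside drm2 DMRs, -0.30 at a minimum of 50, and -0.023 without the 1% of DMRs with the highest coverage. The median log2 ratio, 0 on every chromosome so that any shift counts, was 0.14 without scaling, -0.021 at a minimum of 10 and -0.25 at a minimum of 50. In the other settings it stayed at 0, where the DMRs empty in both genotypes hold it, so those values say little about a shift. The count of 2-fold higher DMRs, 1377 as reported, was 48 at a minimum of 50, where 40 were lower. The count of 2-fold lower DMRs, 58 as reported, was 217 without a minimum, 112 scaled by distinct bases, 37 scaled by the median flank ratio, 23 without scaling, 22 with a pseudocount of 5, 34 over the central 200 bp, 37 over non-overlapping DMRs and 38 over DMRs at least 1 Mb inside the bounds. Scale factors ran from 1.12 to 1.27 besides no scaling. Of 121 alternatives for single DMRs and coverage classes, 103 stayed close and none turned in sign; the median log2 ratio ran from 0.89 to 1.38 at a Col-0 coverage of 5 to 10 and from -0.52 to -0.18 at 50 to 100. The causes of these shifts were not tested. Leaving out windows of very high coverage, also from the scaling, was added after seeing the data.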

Other observations

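The bisulfite tables, from nrpe1, swi3b and Col-0 plants of another set and without a stated cytosine context, reach few of the pericentromeric CG-only DMRs, through windows around listed nucleosomes. Of 50 DMRs reached by the windows of the SWI3B nucleosome list, 40 had at least 5 cytosines with a level in all 3 genotypes. Their median methylation was 0.200% in nrpe1, 0.306% in swi3b and 0.219% in Col-0, and 4 of them were at 10% or more in Col-0, reaching 32.6%. Of 14 DMRs reached by the windows of the Pol V list, 8 had at least 5 such cytosines, with medians of 0.532% in nrpe1, 3.34% in swi3b and 6.08% in Col-0. No drm2 methylation levels were analysed here.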
